A study of Mus musculus with 12 samples.

Results

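The genes described here are 8 transcripts that mark the resident macrophages (Mφ) of the heart, namely Timd4, Lyve1, Folr2, Cd163, Mrc1, F13a1, Vsig4 and Cbr2. They were chosen by name, as rows of the count files, and make up 8 of the 24445 genes counted. All 8 were found in every library and passed the filter on low counts, which kept 14608 genes. RNA was sequenced from CD14+/CD64+ cardiac Mφ of 12 adult male C57BL6/J mice, each mouse giving 1 library, with 4 mice in each of 3 groups. Control mice (Ct) carried a saline pump. Mice with early concentric hypertrophy (ECH) had received isoproterenol, a β-adrenergic agonist, from a pump at 30 mg/kg/day for 14 days, and mice with heart failure (HF) had received the same dose for 28 days. How long each saline mouse was infused is not stated. Cells of digested hearts were enriched with anti-CD45 beads and gated on CD11b before the sort, so that all values are means over the sorted cells of 1 heart. Fewer cells of a type and less RNA per cell cannot be told apart in such samples.

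Resident cardiac Mφ are seeded before birth and largely renew themselves in place, whereas Mφ derived from blood monocytes replace them in part with age and after injury. The resident cells sit along vessels and between cardiomyocytes, take up dying cells and debris, and are known by receptors for phosphatidylserine (TIM-4, from Timd4), hyaluronan (LYVE1), folate (FRβ, from Folr2), haemoglobin-haptoglobin complexes (CD163), mannosylated glycoproteins (CD206, from Mrc1) and complement C3 fragments (CRIg, from Vsig4). F13a1 encodes the A subunit of coagulation factor XIII, a transglutaminase that cross-links fibrin, and Cbr2 encodes a carbonyl reductase.

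Totals lay between 88466559 and 111180291 counts per library. Levels are given as CPM, the count of a gene brought to a common library size after TMM scaling, and the raw counts of the 8 genes in a library ran from 3746 for Timd4 to 546437 for F13a1. Per library, between 13600 and 15940 genes had at least 1 count. Library numbers in the labels fell into 2 sets, the Ct libraries with ECH 1 and ECH 2 (set A) and the HF libraries with ECH 3 and ECH 4 (set B). The sets are inferred from those numbers on the assumptions that no number repeats within a set and that Ct and HF libraries each stay together. The numbers alone would allow other splits, and no source states what the sets are. Under these assumptions no HF library shares a set with a Ct library, so HF against Ct has no value within a set. A fit with the set as a covariate separates both only through the 4 ECH libraries. The 8 genes together held between 0.756% and 1.2% of the normalized counts in Ct, between 0.949% and 1.17% in ECH and between 0.899% and 1.12% in HF, and these ranges overlapped.

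The 8 genes did not move as a group. Timd4 was lower in ECH than in Ct and was the only 1 of the 8 called at a false discovery rate (FDR) under 0.05 with a fold change of at least 2. Without passing the test, Folr2 and Cbr2 had lower means in ECH than in Ct, and Cd163, Lyve1, F13a1, Mrc1 and Vsig4 had higher means. In ECH against Ct 1 of the 8 genes was called, against 0.356% of all genes tested, and 0.089% of all genes were called lower. In HF against Ct 0 of the 8 were called, against 0.377% of all genes, and in ECH against HF 0 were called, against 0% of all genes. At an unadjusted p under 0.05 edgeR's quasi-likelihood test gave 3 of the 8 genes in ECH against Ct (11.9% of all genes), 1 in HF against Ct (16.1%) and 2 in ECH against HF (7.98%). The median log2 fold change of the 8 genes was 0.25 in ECH against Ct, with 5 genes higher and 3 lower, beside 0.01 over all genes tested. It was -0.01 in HF against Ct, beside -0.02 over all genes, and 0.09 in ECH against HF, beside 0.02.

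**Figure D1:**
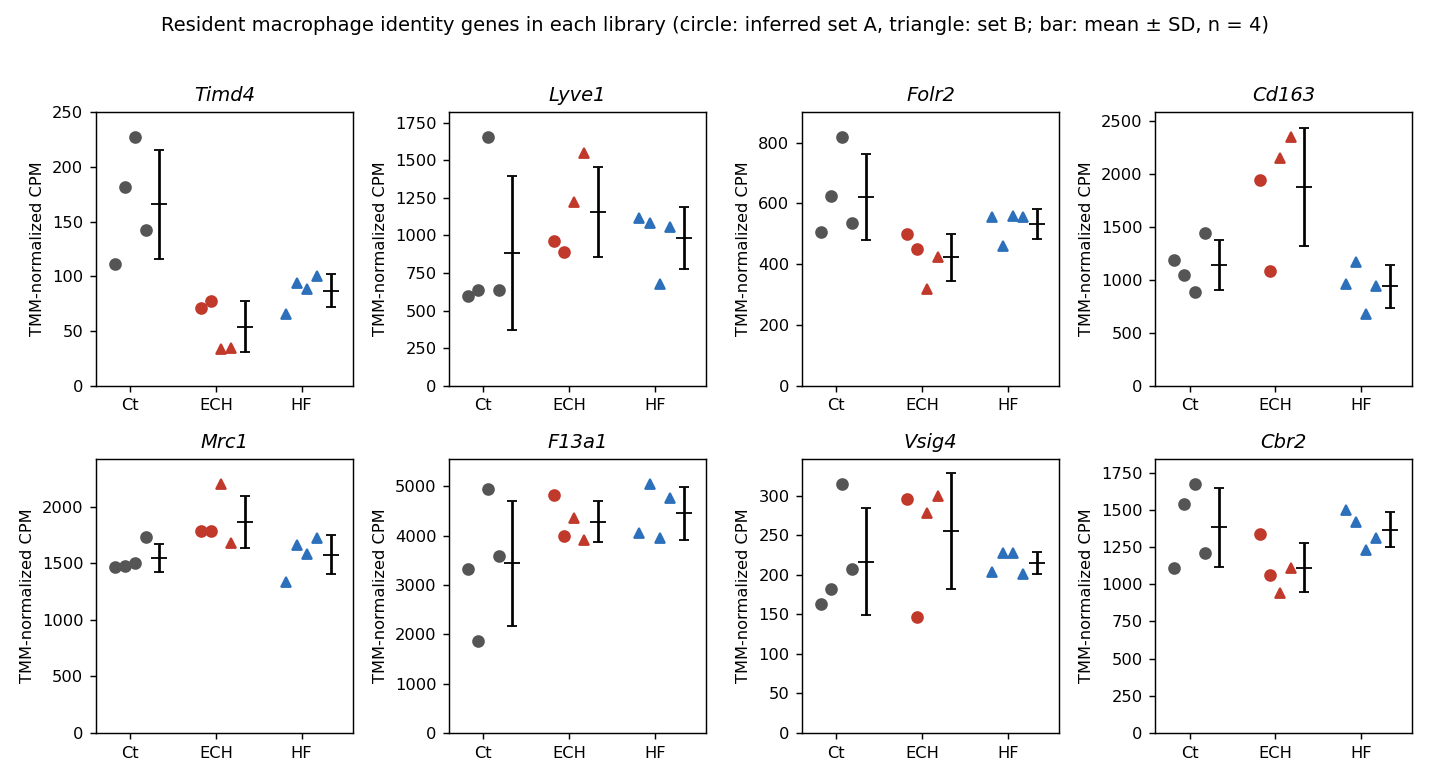
TMM-normalized CPM of each gene (y axis, from 0) in the 12 libraries by group (x axis). Circles are libraries of the inferred set A, triangles those of set B, and the bar is the mean ± SD of 4 mice. All 4 ECH points of Timd4, from 33.6 to 77.3 CPM, lie below the lowest Ct point at 112 CPM, and the Cd163 point of ECH 2 at 1083 CPM lies among the Ct points.

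Timd4, the phosphatidylserine receptor, lies on the plus strand of chromosome 11 (GRCm38, GENCODE M21, 46810800 to 46844332, 9 exons). Its level was 112, 182, 227 and 142 CPM in the 4 Ct libraries, 70.9, 77.3, 33.6 and 34.2 CPM in the ECH libraries, and 65.5, 94.0, 88.2 and 100.5 CPM in the HF libraries. Every ECH and every HF library lay below every Ct library, and the ECH and HF ranges overlapped. Mean levels were 165.8 ± 50.2 CPM in the Ct mice, 54.0 ± 23.4 CPM in those with ECH and 87.1 ± 15.2 CPM in those with HF (SD, n = 4 mice each). Timd4 was 3.07-fold lower in ECH than in Ct (log2 fold change -1.62 ± 0.30 SE, 95% interval -2.27 to -0.97, FDR = 0.0341 by edgeR's quasi-likelihood test) and ranked at position 49 of all genes by p. In HF it was 1.90-fold lower than in Ct (log2 fold change -0.93, 95% interval -1.57 to -0.29) and did not pass the test (FDR = 0.172, edgeR), and with the library set as a covariate the direction turned (log2 fold change 0.20, FDR = 0.862, edgeR). The difference between ECH and HF was -0.69 on the log2 scale (95% interval -1.32 to -0.06) and did not pass either (FDR = 0.595, edgeR). Timd4, Ednrb and Mertk are in a heat map of genes that the study selected for ECH on these samples, so their direction in ECH is not independent evidence.

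Within ECH the Timd4 levels of ECH 3 and ECH 4, of set B, were both below those of ECH 1 and ECH 2, of set A. With ECH 1 and ECH 2 alone against Ct the log2 fold change was -1.17 (FDR = 0.741, edgeR), and with ECH 3 and ECH 4 alone against HF it was -1.36 (FDR = 0.0102, edgeR). The call in ECH against Ct did not hold when Ct 1, Ct 2, Ct 3, Ct 4, ECH 3, ECH 4, HF 2, HF 3 or HF 4 was left out (FDR between 0.0531 and 0.131, edgeR) and held without ECH 1, ECH 2 or HF 1, with log2 fold changes from -1.84 to -1.43 throughout. Each of these fits kept Timd4 lower in ECH.

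All 5 B cell markers of a fixed list had lower means in ECH and in HF than in Ct, as Timd4 did. Their summed level was 156, 446, 96.6 and 231 CPM in the Ct libraries, from 34.3 to 79.8 CPM in ECH and from 50.1 to 74.6 CPM in HF. Among the Ct libraries Ct 1, Ct 4 and Ct 2 had the same order for Timd4 and for the B cell sum, while Ct 3 had the highest Timd4 level and the lowest B cell sum. The part of B cells in the Timd4 result was not tested.

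The promoter window of Timd4 (RefSeq, GRCm38.p6, chr11:46810549-46810848, plus strand), from 250 bases before to 50 bases after the annotated start, is shown because Timd4 is the gene that passed the test. It and the other windows of the 8 genes were searched on both strands for a MAF motif (TGCTGA), a PU.1 motif (GAGGAA) and a glucocorticoid receptor motif (AGAACA), which are short core sequences bound by Mφ transcription factors and by the glucocorticoid receptor. Capitals mark the matches.
Timd4 promoter: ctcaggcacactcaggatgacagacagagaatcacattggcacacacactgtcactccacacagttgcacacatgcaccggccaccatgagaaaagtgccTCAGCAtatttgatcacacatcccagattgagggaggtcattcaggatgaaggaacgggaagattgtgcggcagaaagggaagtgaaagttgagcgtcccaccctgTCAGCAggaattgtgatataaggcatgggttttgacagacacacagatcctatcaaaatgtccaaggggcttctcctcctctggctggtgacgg
Both matches in the Timd4 window are MAF motifs on the opposite strand, with their first bases at -150 and -44 from the start. The 7 genes with a window had 9 windows, because Folr2 and F13a1 have 2 each. A MAF motif stood in 19.5% of the 32851 mouse promoter windows of the same length. Among the 9 windows it stood in 5, from 4 genes, Timd4, Folr2, Vsig4 and Cbr2. The PU.1 motif stood in 28.3% of all windows and in 5 of the 9, those of Mrc1, F13a1, Vsig4 and Cbr2. The glucocorticoid receptor motif stood in 19% of all windows and in 2 of the 9, those of Cd163 and, at its second start, Folr2. These are matches of letters and not sites shown to be bound.

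Cd163, the scavenger receptor that clears haemoglobin bound to haptoglobin, lies on the plus strand of chromosome 6 (124304656 to 124330527). Its promoter window (RefSeq, GRCm38.p6, chr6:124304401-124304700, plus strand) holds the glucocorticoid receptor motif at -119, on the opposite strand, and at 26, and is shown beside that of Timd4 because Cd163 had a higher mean in ECH than in Ct, without passing the test.
Cd163 promoter: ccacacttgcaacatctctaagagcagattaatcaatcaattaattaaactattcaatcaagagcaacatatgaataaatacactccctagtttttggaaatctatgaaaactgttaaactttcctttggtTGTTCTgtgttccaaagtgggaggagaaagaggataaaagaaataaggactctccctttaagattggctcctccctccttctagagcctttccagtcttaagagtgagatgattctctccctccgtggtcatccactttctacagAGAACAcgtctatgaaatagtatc
Cd163 stood at 1189, 1044, 887 and 1448 CPM in the Ct mice, at 1942, 1083, 2151 and 2350 CPM in those with ECH, and at 964, 1170, 680 and 943 CPM in those with HF. ECH 1, ECH 3 and ECH 4 lay above every Ct and HF library, and ECH 2 lay inside the range of both groups. The log2 fold change was 0.72 in ECH against Ct (95% interval 0.21 to 1.24, FDR = 0.241) and 1.0 in ECH against HF (95% interval 0.49 to 1.52, FDR = 0.491), and neither passed edgeR's quasi-likelihood test. In HF against Ct it was -0.28 (95% interval -0.80 to 0.23, FDR = 0.612, edgeR), and -0.855 with the library set as a covariate (FDR = 0.296, edgeR). Within set A, ECH against Ct gave 0.40 (FDR = 0.951, edgeR), and within set B, ECH against HF gave 1.26 (FDR = 0.0134, edgeR). Cd163 is a gene that the study itself names for ECH, so that its direction there is not independent evidence.

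**Figure D2:**
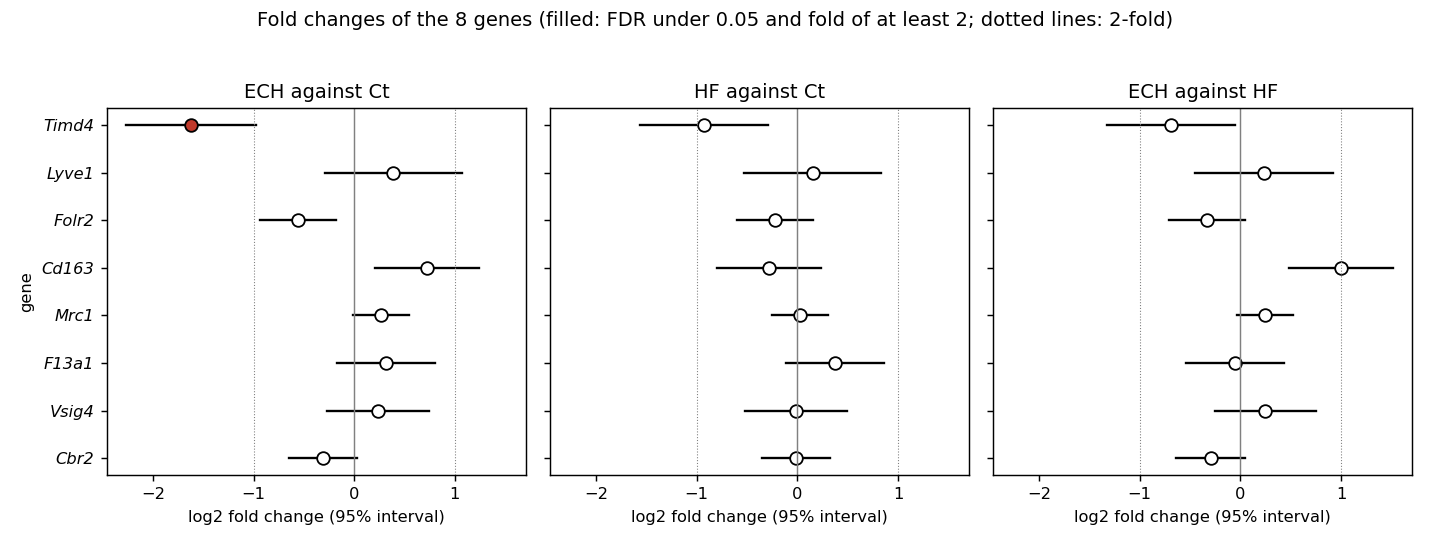
Log2 fold changes (x axis) of the 8 genes (y axis) with their 95% intervals in 3 comparisons, from edgeR's quasi-likelihood fit to all 12 libraries. The filled point marks the gene called, Timd4 at -1.62 in ECH against Ct, and dotted lines mark a 2-fold change. The intervals of Timd4 lie below 0 in every panel, and those of Cd163 lie above 0 in both comparisons of ECH.

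Mrc1, the mannose receptor CD206, lies on chromosome 2 (14229392 to 14332057, plus strand). Its levels were 1472, 1480, 1503 and 1732 CPM in the Ct mice, 1786, 1787, 2200 and 1684 CPM in those with ECH and 1334, 1666, 1580 and 1724 CPM in those with HF. Of the ECH libraries, ECH 1, ECH 2 and ECH 3 lay above the Ct range and ECH 4 within it, and of the HF libraries HF 1 lay below it and the others within it. The log2 fold change in ECH against Ct was 0.27 (95% interval -0.01 to 0.55, FDR = 0.435, edgeR), so that the interval leaves out a 2-fold change in either direction. In HF against Ct it was 0.03 (95% interval -0.25 to 0.31, FDR = 0.944, edgeR).

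Folr2, the folate receptor β, lies on the minus strand of chromosome 7 (101839988 to 101857194). Its level was 505, 624, 818 and 535 CPM in the Ct mice, 499, 450, 317 and 423 CPM in those with ECH and 554, 460, 559 and 556 CPM in those with HF. The ECH libraries lay below all Ct libraries, by a narrow margin between ECH 1 at 499 CPM and Ct 1 at 505 CPM, and the HF libraries overlapped both groups. Timd4 and Folr2 were the 2 of the 8 genes lower without overlap in ECH than in Ct, a pattern that 3.64% of all genes tested showed. In HF against Ct it was Timd4 alone, beside 4.45% of all genes, and in ECH against HF none of the 8, beside 6.92% in either direction. The log2 fold change of Folr2 in ECH against Ct was -0.56 (95% interval -0.93 to -0.18) and did not pass the test over all genes (FDR = 0.216, edgeR). Within set A it was -0.40 (FDR = 0.951, edgeR). The annotated gene Gm10602 on the opposite strand overlaps 63.1% of the exon length of Folr2, and the strand setting of the counting is not stated, so reads of both genes cannot be told apart.

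Lyve1, the hyaluronan receptor, lies on the minus strand of chromosome 7 (110850607 to 110863239). It stood at 600, 639, 1654 and 640 CPM in the Ct mice, at 961, 889, 1224 and 1547 CPM in those with ECH and at 1117, 1081, 678 and 1053 CPM in those with HF. Ct 3 alone reached a level above all ECH and HF libraries, and the other Ct libraries lay below all of them. The log2 fold change in ECH against Ct was 0.39 (95% interval -0.30 to 1.07, FDR = 0.677, edgeR), and it was 0.88 without Ct 3 (FDR = 0.0879, edgeR). Within set A it was 0.057 (FDR = 0.993, edgeR), and with the library set as a covariate 0.067 (FDR = 0.981, edgeR). In HF against Ct it was 0.15 (95% interval -0.53 to 0.84, FDR = 0.859, edgeR), 0.65 without Ct 3 (FDR = 0.131) and -0.43 with the library set as a covariate (FDR = 0.776). Lyve1 also marks lymphatic endothelium, and the sum of 6 other lymphatic markers was 0.058 to 2.29 CPM in the Ct mice, 3.02 to 8.20 CPM in those with ECH and 6.34 to 9.99 CPM in those with HF. Most of it in ECH and HF came from Pdpn, with means of 0.332, 3.99 and 7.07 CPM and no overlap of Ct with either group (FDR = 0.134 in ECH against Ct and 0.076 in HF against Ct, edgeR), and Ccl21a was at 0 in all 12 libraries. The part of lymphatic endothelium in the Lyve1 values was not tested.

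Vsig4, the complement receptor CRIg, lies on chromosome X (96247203 to 96293438, minus strand) and had the second lowest mean CPM of the 8 genes in each group. Its levels were 163, 182, 314 and 207 CPM in the Ct mice, 296, 147, 278 and 300 CPM in those with ECH and 204, 227, 227 and 201 CPM in those with HF. ECH 2 had the lowest level of all 12 libraries and Ct 3 the highest. The log2 fold change was 0.24 in ECH against Ct (95% interval -0.27 to 0.74, FDR = 0.744, edgeR) and -0.01 in HF against Ct (95% interval -0.52 to 0.49, FDR = 0.988, edgeR). Without Ct 3 these values were 0.47 and 0.23, and without ECH 2 the first was 0.43. Over all alternative fits the first ran from 0.022 to 0.473 and the second from -0.397 to 0.225.

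Of the genes for enzymes, F13a1 (chromosome 13, 36867178 to 37050244, minus strand) had the highest CPM of the 8 genes in every library, with 3332, 1871, 4956 and 3595 CPM in the Ct mice, 4832, 4002, 4368 and 3916 CPM in those with ECH and 4046, 5044, 3946 and 4764 CPM in those with HF. The groups overlapped through Ct 3. Its log2 fold change was 0.32 in ECH against Ct (95% interval -0.17 to 0.80, FDR = 0.633, edgeR) and 0.37 in HF against Ct (95% interval -0.12 to 0.86, FDR = 0.449, edgeR). Without Ct 2 these values were 0.11 and 0.17, and without Ct 3 they were 0.55 and 0.60. F13a1 is also carried by platelets and monocytes. The summed level of 5 platelet markers was 8.68 to 18.6 CPM in the Ct mice, 6.83 to 68.1 CPM in those with ECH and 46.5 to 92.1 CPM in those with HF, of which Ppbp made up most with means of 13.5, 31.6 and 72.8 CPM and no overlap between HF and Ct (log2 fold change 2.43, FDR = 0.117, edgeR), while Gp9 was at 0 in 8 libraries. In the same order of groups, the sum of 12 recruited monocyte genes was 632 to 1100 CPM, 892 to 1308 CPM and 889 to 1753 CPM. Their part in the F13a1 values was not tested.

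Cbr2, the carbonyl reductase (chromosome 11, 120729489 to 120732114, minus strand), stood at 1108, 1536, 1672 and 1211 CPM in the Ct mice, at 1336, 1059, 939 and 1112 CPM in those with ECH and at 1500, 1417, 1232 and 1313 CPM in those with HF. ECH 2 and ECH 3 lay below every Ct and HF library and the other ECH libraries lay within the Ct range. The log2 fold change in ECH against Ct was -0.31 (95% interval -0.65 to 0.02, FDR = 0.462, edgeR), and in HF against Ct it was -0.02 (95% interval -0.36 to 0.32, FDR = 0.975, edgeR).

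Single mice stood out across several of the genes. Ct 3 had the highest Ct level of Timd4, Lyve1, Folr2, F13a1, Vsig4 and Cbr2 and the lowest of Cd163. ECH 3 had the lowest level of all 12 libraries for Timd4, Folr2 and Cbr2 and the highest for Mrc1.

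Divided by the length of the merged exons of each gene, which puts the genes on a common scale, levels in Ct ran from Cbr2 at 1040 ± 201 CPM per kb (SD, n = 4) over F13a1 at 510 ± 187, Folr2 at 401 ± 91.4, Lyve1 at 302 ± 176, Mrc1 at 243 ± 19.6, Cd163 at 209 ± 43.8 and Vsig4 at 146 ± 45.7 to Timd4 at 76.4 ± 23.2 CPM per kb. Neighbours in this order overlapped in their ranges over the 4 mice except Cbr2 with F13a1 and Vsig4 with Timd4. Cbr2 ranked at position 42 of the 14094 genes with a length in Ct, 45 in ECH and 43 in HF. Timd4 ranked at position 600 in Ct, 1938 in ECH and 1249 in HF and stayed the lowest of the 8 genes. In ECH the mean of Cd163, 344 ± 102 CPM per kb, stood above that of Folr2, 273 ± 49.8 CPM per kb, while HF kept the Ct order of mean levels for all 8 genes.

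**Figure D3:**
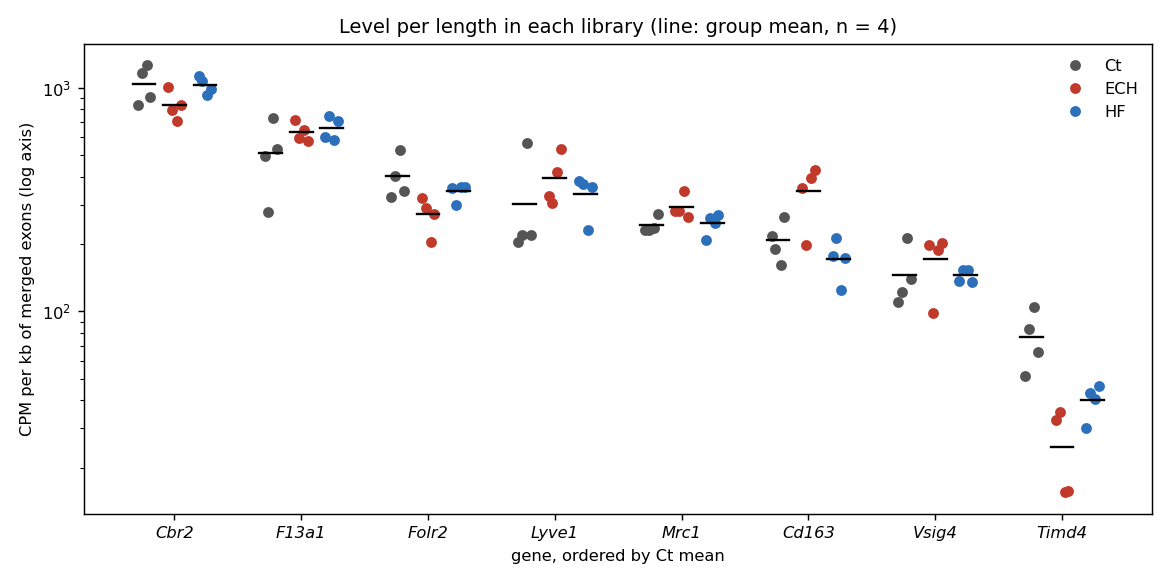
CPM per kb of merged exons (y axis, log scale) of the 8 genes, ordered on the x axis by their Ct mean, with 1 point per library and a line at the mean of 4 mice. Cbr2 has the highest mean in every group and Timd4 the lowest, from 76.4 in Ct to 24.9 in ECH and 40.1 in HF.

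Ratios of raw counts within a library do not depend on the scaling of library sizes. Per 100 counts of Folr2 there were 22.1, 29.2, 27.8 and 26.6 counts of Timd4 in Ct, 14.2, 17.2, 10.6 and 8.08 in ECH and 11.8, 20.4, 15.8 and 18.1 in HF. Every Ct library had a higher ratio than every ECH and HF library. The HF libraries are all of set B and the Ct libraries all of set A, and the direction of Timd4 itself in HF against Ct turned with the set as a covariate (log2 fold change 0.20). Per 100 counts of Lyve1 there were between 13.7 and 28.5 counts of Timd4 in Ct, between 2.21 and 8.69 in ECH and between 5.86 and 13 in HF, again without overlap of Ct with either group. Per 100 counts of Csf1r, the receptor of the Mφ growth factor M-CSF, Timd4 had 2.43 to 6.95 counts in Ct, 0.833 to 1.69 in ECH and 1.83 to 2.58 in HF, where HF and Ct overlapped. Cd163 had 59.0 to 83.6 counts per 100 of Mrc1 in Ct, 60.6 to 140 in ECH and 43.0 to 72.2 in HF, with overlap of all groups. Folr2 had 30.9 to 54.4 counts per 100 of Mrc1 in Ct and 14.4 to 27.9 in ECH, without overlap, and 27.6 to 41.5 in HF.

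**Figure D4:**
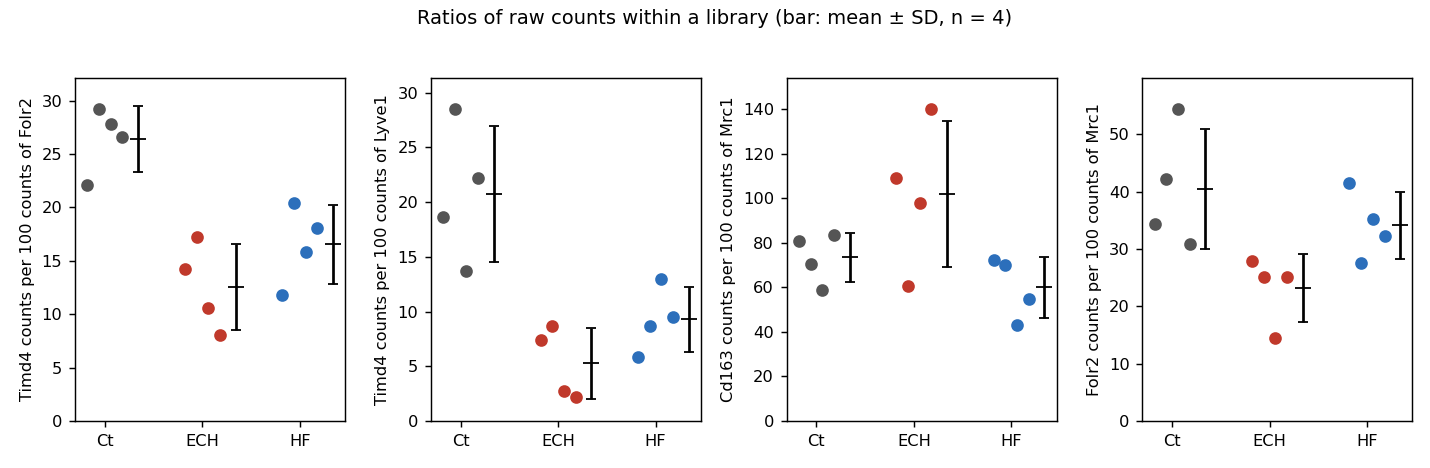
Counts of a gene per 100 counts of another in the same library (y axes, from 0) by group (x axes), with 1 point per library and the mean ± SD of 4 mice. The Timd4 to Folr2 ratio is at least 22.1 in Ct and at most 17.2 in ECH and 20.4 in HF, while the Cd163 to Mrc1 ratio of ECH spreads from 60.6 to 140.

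Over the 12 libraries, Pearson's r of log2 CPM between pairs of the 8 genes ran from -0.72 (Folr2 with Mrc1) to 0.86 (Timd4 with Folr2), and 15 of 28 pairs were positive. Timd4, Folr2 and Cbr2 varied together (r of 0.68 for Timd4 with Cbr2 and 0.84 for Folr2 with Cbr2), and Cd163 ran opposite to Timd4 (-0.64) and Folr2 (-0.68). With each group centred on its own mean, 20 of 28 pairs were positive. The libraries share groups, inferred sets and amplification, so that these values are descriptions. Beyond the 8 genes, the closest pattern to Timd4 over the 12 libraries was that of Tanc2 (Pearson's r = 0.94, Spearman's rho = 0.92, r = 0.88 without ECH 3 and ECH 4), which was 2.12-fold lower in ECH than in Ct without passing the test (FDR = 0.0899, edgeR). The closest to Cd163 was Tlr7, a receptor for RNA in endosomes (r = 0.92, rho = 0.94), with a log2 fold change of 0.79 in ECH against Ct (FDR = 0.192, edgeR). The closest to the other genes were Ccl6, a chemokine, for Lyve1 (r = 0.86), Mesdc1 for Folr2 (r = 0.94), Lnpep for Mrc1 (r = 0.92), Eif4h for F13a1 (r = 0.97), Glud1 for Vsig4 (r = 0.86) and Cxx1a for Cbr2 (r = 0.90), and none of these was called in any comparison.

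Among 20 other genes reported in resident Mφ, 1 was called in ECH against Ct. This was Ednrb, the endothelin receptor type B, with a mean of 413 CPM in Ct, of 130 CPM in ECH and of 204 CPM in HF (log2 fold change -1.67 in ECH against Ct, FDR = 0.0407, edgeR). The list had 16 of 20 genes with a lower mean in ECH than in Ct and a median log2 fold change of -0.28, beside 0.01 over all genes, and 0 were called in the other comparisons. Ccl24, an eosinophil chemokine, was at 425 CPM in Ct and 206 CPM in ECH (log2 fold change -1.04, FDR = 0.0846, edgeR). The 7 genes of MHC class II antigen presentation, which mark another set of cardiac Mφ, all had lower means in ECH than in Ct (median log2 fold change -0.63), 7 of 7 at an unadjusted p under 0.05 and 0 called, with Cd74 at -0.65 (FDR = 0.101, edgeR). In HF against Ct their median was -0.24.

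Of 20 genes that act with the 8 receptors and enzymes, in folate uptake, haem breakdown, engulfment, complement and hyaluronan binding, 1 was called. Slc19a1, the reduced folate carrier, rose from 11.2 CPM in Ct to 25.4 CPM in HF (log2 fold change 1.19, FDR = 0.0284, edgeR) and was at 19.7 CPM in ECH (0.82 against Ct, FDR = 0.108), whereas the folate receptor gene Folr2 had a log2 fold change of -0.22 in HF against Ct. Mertk, a further receptor for the uptake of dying cells, had means of 117 CPM in both Ct and HF and of 317 CPM in ECH (log2 fold change 1.43, FDR = 0.101, edgeR). Of 12 genes of recruited monocytes, Fn1, which encodes fibronectin, was called higher in HF than in Ct (log2 fold change 1.84, FDR = 0.0467, edgeR), and 0 were called in ECH against Ct. Fn1 had a log2 fold change of 1.54 in ECH against Ct without passing the test (FDR = 0.095, edgeR), and its ECH and HF levels overlapped.

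Markers of other cells were present in the libraries, and the sums of some lists reached or passed the levels of Timd4 and Vsig4. No gene of the lists for the sort, T and NK cells, neutrophils, dendritic cells, platelets, lymphatic or blood endothelium, fibroblasts and cardiomyocytes was called in any comparison. Summed levels in Ct, ECH and HF were 12.7 to 58.6, 2.71 to 23.2 and 7.20 to 17.3 CPM for T and NK cells and 334 to 1583, 168 to 455 and 127 to 1238 CPM for neutrophils. They were 101 to 229, 97.4 to 141 and 128 to 162 CPM for dendritic cells, 28.0 to 188, 80.1 to 420 and 81.1 to 240 CPM for fibroblasts, 7.75 to 24.5, 13.1 to 28.1 and 8.71 to 21.4 CPM for blood endothelium and 61.7 to 201, 63.6 to 136 and 49.2 to 86.1 CPM for cardiomyocytes. The markers of the sort and of Mφ in general summed to 9216 to 12190, 10480 to 13770 and 11070 to 12640 CPM, and these ranges overlapped between the groups.

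**Figure D5:**
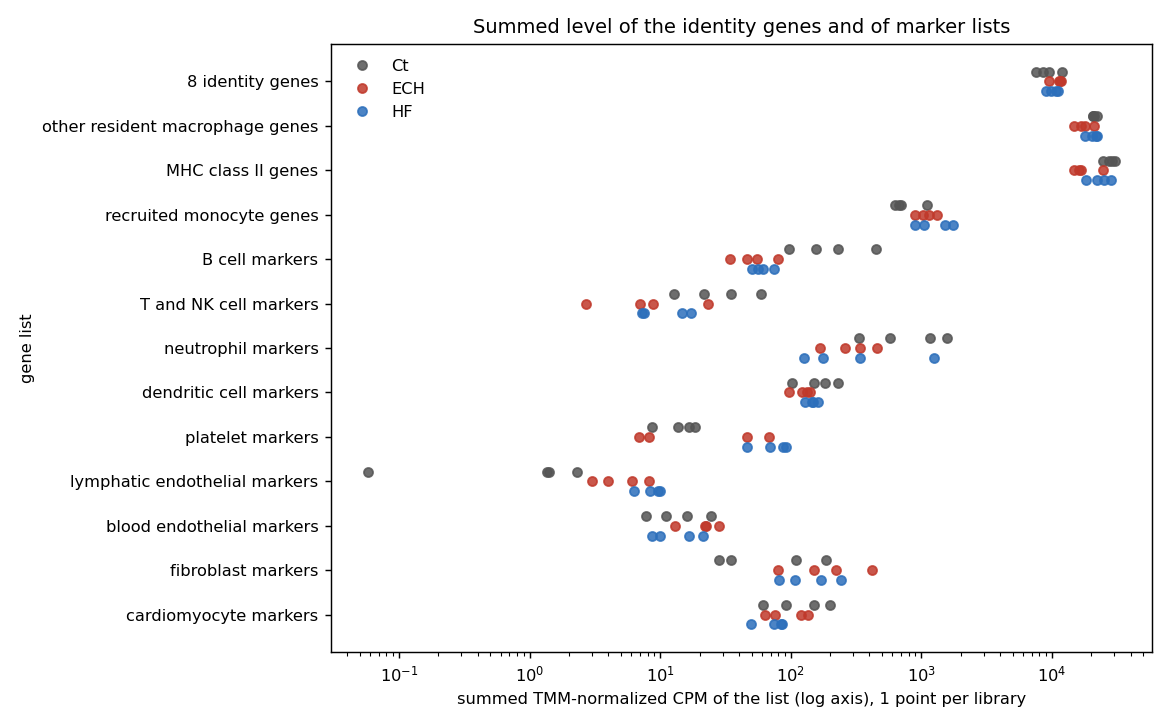
Summed TMM-normalized CPM (x axis, log scale) of the 8 identity genes and of marker lists (y axis), with 1 point per library, coloured by group. The sums of the 8 identity genes overlap between groups, and the B cell sums are at least 96.6 CPM in Ct and at most 79.8 CPM in ECH and 74.6 CPM in HF.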

How the data were processed

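RNA of sorted CD14+/CD64+ cardiac Mφ was sequenced from 12 mice (SMART-Seq v4 cDNA, Illumina sequencing of both ends), and libraries were grouped by their labels. After trimming by Trimmomatic and alignment to mm10 by TopHat2, the authors used featureCounts for counting per gene and deposited raw counts of 24445 genes per library, without normalization. Tool versions, annotation and strand setting are not given in the sources used. Genes with 2 counts outnumbered those with 1 or 3 throughout, so counts may not be independent fragments.

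Genes passing filterByExpr (14608) were fitted in edgeR 4.0.16 (R 4.3.3) with TMM scaling, 1 mean per group over all 12 libraries and the quasi-likelihood test. Benjamini-Hochberg adjustment ran over the 14608 genes, and calls required an FDR under 0.05 with a fold of at least 2. The common dispersion was 0.370. The p values set differences between groups against the spread between libraries of a group, each library from 1 mouse. Exon lengths and positions were taken from GENCODE M21 (96.5% of genes tested matched) and promoter windows from RefSeq. Alternatives used DESeq2 1.42.0, limma-voom (limma 3.58.1), edgeR's likelihood ratio test, RLE scaling, other filters and fits, the inferred library sets, a replicate block and omission of each library. Genes outside the 8 are named when closest in pattern to a member, when called, or when among the 2 of lowest p in their list. The 8 genes and all lists were chosen with earlier results of these data known. The code was tested on simulated data. Results of 1 listed gene are not reported here.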

Additional observations from a re-analysis of the deposited data

Results flagged for a closer look

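Of 24 sets of 4 libraries (8 genes in 3 groups), 5 had a library whose distance to the nearest of the others exceeded Dixon's 95% limit. Chance flags about 1 in 20 such groups. Lyve1 stood at 1654 CPM in Ct 3, where the other Ct libraries lay between 600 and 640 CPM, and at 677.8 CPM in HF 3, below 1053 to 1117 CPM in the other HF libraries. Folr2 was at 460.0 CPM in HF 2, against 554 to 559 CPM in the others. Mrc1 was at 1732 CPM in Ct 4, against 1472 to 1503 CPM. Vsig4 was at 146.6 CPM in ECH 2, against 278 to 300 CPM, and Cd163 was also lowest in ECH 2 among the ECH libraries.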

How the results depend on the processing

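In ECH against Ct the number of the 8 genes called was 1 (Timd4) and 0 when only the compared groups were fitted (Timd4 log2 fold change -1.63, FDR = 0.111), with the library set as a covariate (-1.16, FDR = 0.166), within the set (-1.17, FDR = 0.741) and without Ct 2 and HF 1 together (-1.58, FDR = 0.0737), all by edgeR. Leaving out each library gave 0 to 1. In ECH against HF the number was 0, but 1 with the likelihood ratio test (Cd163, FDR = 0.0262) and 2 with the set as a covariate (Timd4 -1.36, Cd163 1.26) or within the set (Timd4 -1.36, Cd163 1.26). With DESeq2, 2 fold changes had an FDR under 0.05 but fell short of the 2-fold limit. These were Cd163 in ECH against HF (log2 fold change 0.998, FDR = 0.0118) and Timd4 in HF against Ct (-0.933, FDR = 0.0353). The cause of these changes was not tested. Over 544 refits of the 24 fold changes of the 8 genes, 507 kept direction and side of the threshold, 14 lost the threshold, 5 passed it and 18 changed sign. With the set as a covariate HF against Ct changed sign for Timd4 (0.20), Lyve1 (-0.43), Folr2 (0.14), Mrc1 (-0.093) and Cbr2 (0.21). Other changes of sign were in HF against Ct for Lyve1 without Ct 2 and HF 1 (-0.048), for Vsig4 and Cbr2 with limma-voom (0.127 and 0.081), and on omission of a library for Mrc1 (range -0.018 to 0.10), Vsig4 (-0.12 to 0.23) and Cbr2 (-0.108 to 0.089), and for F13a1 in ECH against HF (-0.119 to 0.009).

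Replicate numbers did not pair the libraries (r between -0.078 and 0.064 in 12 same-number pairs). With the replicate number as a block, 0 of the 8 genes were called in ECH against Ct (Timd4 -1.63, FDR = 0.0796, edgeR), genes called fell to 22 from 52, and Vsig4 in HF against Ct was 0.033. Genes called over all alternatives ranged from 1 to 248 in ECH against Ct, 15 to 333 in HF against Ct and 0 to 370 in ECH against HF. The lowest raw count of any of the 8 genes in a library was 3746.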
